A study of Homo sapiens with 6 samples.

Results

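The 52 genes described here encode enzymes that modify transfer RNA (tRNA), or the partner subunits those enzymes need. They were picked by symbol, as members of known tRNA modification pathways, and each symbol was matched to its Ensembl identifier through GENCODE v44, which found all 52 of them among the 60676 genes listed. HT29 cells, a human colorectal adenocarcinoma line of wild-type genotype, were kept for 48 h in control medium (untreated), in medium lacking histidine or in medium lacking tryptophan, and polyadenylated mRNA of 2 samples per condition was sequenced. RPMI was the base of the histidine-free medium and DMEM F-12 that of the tryptophan-free medium, while that of the control medium is not named for the RNA-seq samples, although full RPMI served as the control in another depletion experiment of the study. Whether the base differed between untreated and histidine-depleted samples is thus not known. Without tryptophan, a difference between media cannot be told apart from the loss of the amino acid. Both depleted media held dialyzed serum, and the serum of the control medium is not stated for the RNA-seq samples. Serum may thus have differed from untreated samples in both depletions. The labels do not say whether the 2 samples of a condition came from separate cultures, and the p-values then measure only the spread between these samples.

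A tRNA reads a codon through its anticodon, and the first anticodon base, the wobble base, pairs with the last base of the codon. Enzymes thiolate, methylate, deaminate or exchange this base and the base that follows the anticodon, which tunes how tightly and how accurately a codon is read, while methylations, pseudouridines and dihydrouridines elsewhere mainly serve the fold and the lifetime of the tRNA. The study asked how the wobble uridine of the glutamine tRNA, thiolated through URM1 and extended by Elongator, bears on the reading of histidine codons when histidine is scarce. For these enzymes the comparisons below ask whether their mRNA levels differed between untreated and depleted cells, and between the depletions. They measure mRNA and say nothing of enzyme activity or of the modifications themselves.

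The libraries held between 46390819 and 64388876 reads on genes. A level is given below as a normalized count, that is reads divided by a size factor with all 6 libraries scaled together, and the values of a gene are listed as untreated, histidine-depleted and tryptophan-depleted. Being relative to the other mRNAs of a library, such a level cannot tell fewer transcripts per cell from a change in total RNA. Differences from untreated cells were tested with limma within the table of each depletion on log2(normalized count + 1), and ± marks the standard error (SE) of a log2 fold change. Over 51 members the samples of a condition differed by a median of 3.74% in untreated, 2.79% in histidine-depleted and 2.93% in tryptophan-depleted cells, and by at most 21.1%, for GTPBP3 in histidine-depleted cells. The member left out there was ADAT3, which had only 7 to 22 reads per library. All 11 colon epithelial markers checked were detected. Their summed level, most of it KRT8 and KRT18, was 429156 to 455535 in untreated, 525842 to 554280 in histidine-depleted and 599347 to 602679 in tryptophan-depleted cells. Gene by gene, 7 of the 11 were lower and 4 higher without histidine (median log2 fold change -0.52), with LGALS4 (-1.57), CDX2 (-1.37) and GPA33 (-3.59) among the lower, CDX1 at 0 in both libraries, and KRT20 (1.74), KRT8 (0.78) and CDH1 (0.49) among the higher, and 5 were higher, KRT20 by 2.38, and 3 lower without tryptophan. COL1A2 and PDGFRA, which mark fibroblasts, were at 0 in every library, and PTPRC of leukocytes did not exceed 2 reads. The leukocyte list summed to at most 384 in any library, most of it CD14, the fibroblast list to at most 69.6 and the endothelial list to at most 55.7. The CD14 level was 50.6 to 63.1 in histidine-depleted and 367 to 380 in tryptophan-depleted cells. Whether these marker levels bear on the results below was not tested.

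After histidine depletion more of these enzymes were higher than lower. Of the 52 members, 28 were higher (53.8%) and 18 lower (34.6%), against 39.1% of all 18288 genes tested being higher and 38.2% lower, and 6 members did not pass the test. The median log2 fold change of the members was 0.24, against 0.010 over all genes tested. A log2 fold change of at least 1 in size was seen in 13 of them, 8 higher and 5 lower, while 16.4% of all genes tested were called higher and 16.1% lower at that size. The largest increases were those of YRDC, ALKBH1, ALKBH8, QTRT2 and MOCS3, and the largest decreases those of GTPBP3, TRDMT1, ADAT2, TYW3 and OSGEP.

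After tryptophan depletion the balance lay the other way. Of 51 members tested, 10 were higher (19.6%) and 30 lower (58.8%), where 36.1% of all 17960 genes tested were higher and 34.8% lower, and 11 members did not pass. ADAT3 was too low to be tested. The median log2 fold change was -0.25, against 0.013 over all genes. ELP6 was the only member whose log2 fold change passed -1, and no member rose by that size, where 10.0% of all genes tested were called higher and 10.4% lower past it, fewer than without histidine. The groups of 2 to 10 members counted below stand against these shares over all genes, and no group was tested as a whole. Both comparisons share the untreated libraries, so the depletions were also compared directly, as given further on.

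**Figure D1:**
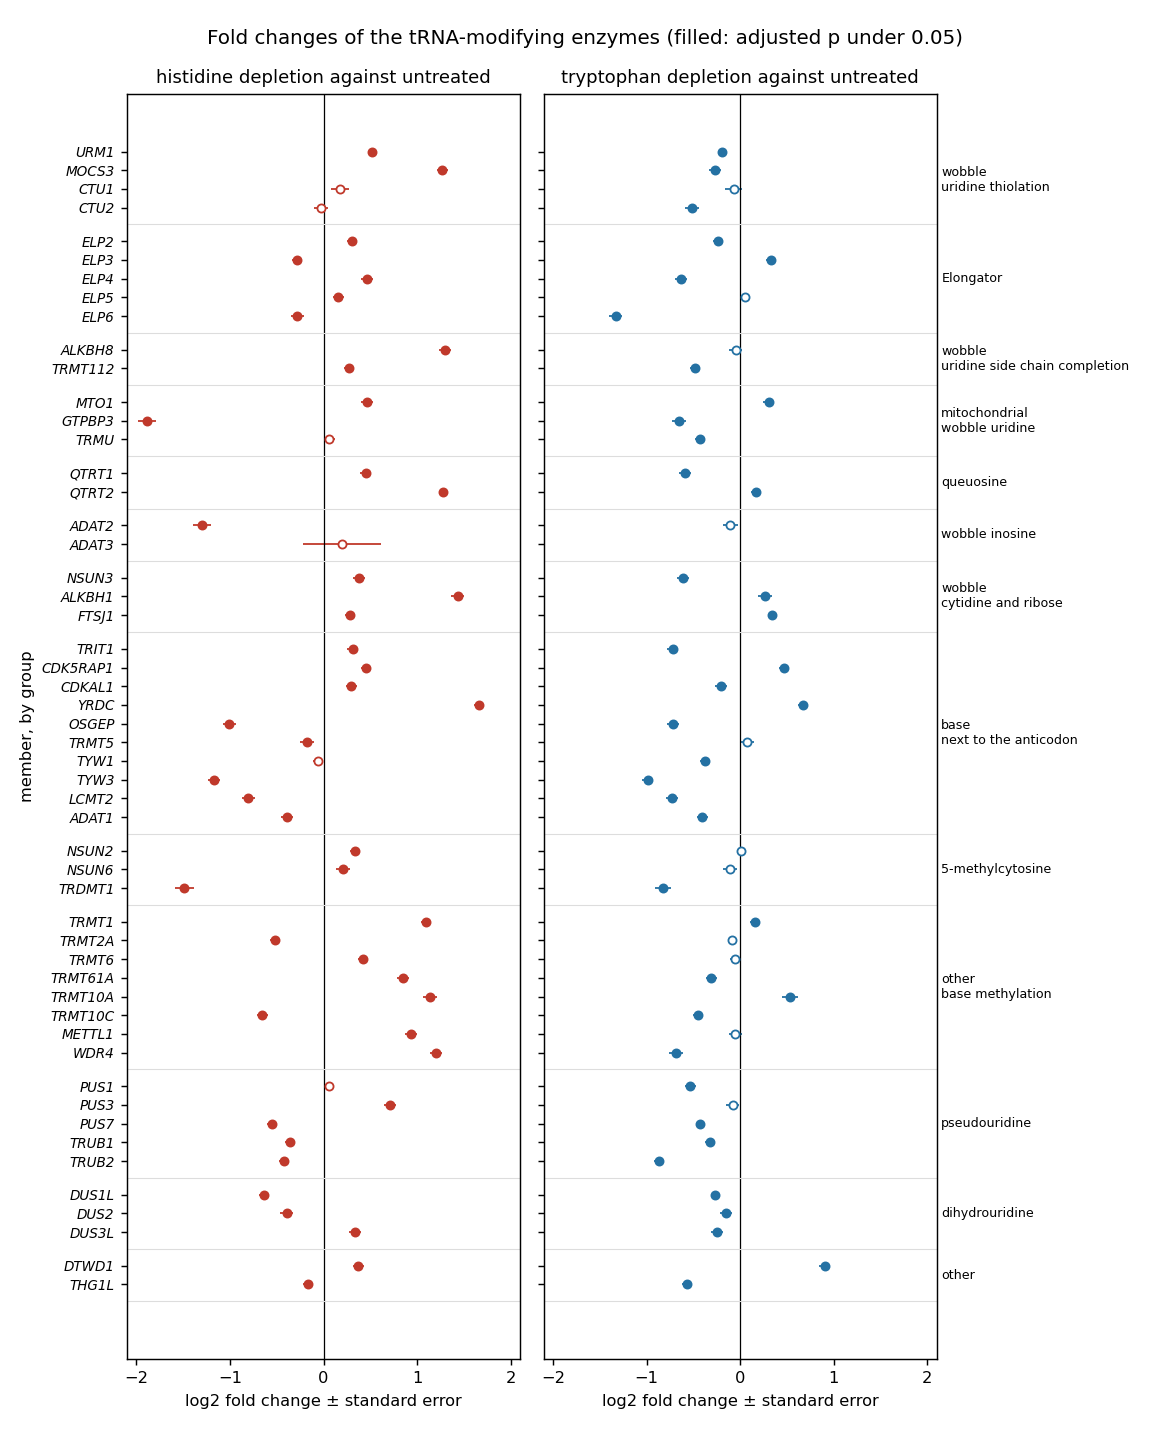
Log2 fold change (± SE) of each member against untreated cells, after histidine depletion on the left and tryptophan depletion on the right, with members grouped by the modification they make. Filled points passed the test, and the members spread from -1.89 to 1.66 on the left and from -1.33 to 0.90 on the right, with ADAT3 shown on the left only.

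Thiolation of the cytosolic wobble uridine begins with MOCS3, which activates the small protein URM1 and loads it with sulfur, and ends with CTU1 and CTU2, which pass the sulfur to the tRNA. On GRCh38 the URM1 gene lies on the plus strand at chr9:128371361-128392016. URM1 counted 5746 and 5903 in untreated, 8166 and 8440 in histidine-depleted, and 5091 and 5150 in tryptophan-depleted cells. The 3 conditions did not overlap, with histidine-depleted cells highest and tryptophan-depleted cells lowest. Against untreated cells URM1 rose 1.43-fold without histidine (log2 0.52 ± 0.0494, adjusted p = 9e-10) and fell without tryptophan (log2 -0.19 ± 0.0469, adjusted p = 0.000127). Under quantile normalization the former log2 fold change shrank to 0.30 and still passed.

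MOCS3 was at 1118 and 1167 in untreated, 2705 and 2768 in histidine-depleted, and 936 and 966 in tryptophan-depleted cells. It thus followed the order of URM1 over a wider range, without overlap between conditions. The increase after histidine depletion was 2.41-fold (log2 1.27 ± 0.0574, adjusted p = 5.97e-16), and the log2 fold change after tryptophan depletion was -0.27 ± 0.0632 (adjusted p = 6.57e-05), or -0.17 with quantile normalization.

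CTU1 and CTU2 form the thiolase. CTU1 was at 360 and 431, then 441 and 443, then 398 and 356, so that the untreated samples lay further apart than the condition means, and neither depletion passed the test (log2 0.18 ± 0.0963, adjusted p = 0.101, and -0.07 ± 0.0932, adjusted p = 0.503). Without untreated replicate 2 the log2 fold change after histidine depletion became 0.31 and passed (adjusted p = 0.0117), as it did with quantile normalization (0.40, adjusted p = 0.00305), and without untreated replicate 1 it was 0.043. After tryptophan depletion the same omissions gave 0.06 and -0.20, neither passing. CTU2, its partner, was at 663 and 673 in untreated and 651 and 656 in histidine-depleted cells, a log2 fold change of -0.02 ± 0.0745 (adjusted p = 0.782) that became 0.18 and passed under quantile normalization. In tryptophan-depleted cells CTU2 was at 460 and 479, below all other libraries, and fell 1.43-fold (log2 -0.52 ± 0.0786, adjusted p = 2.73e-09). Opposite-strand genes share 10.0% of the exonic bases of CTU2, and the sources used here do not state whether strand was used in counting.

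Elongator adds the side chain at the other end of the same uridine. Of its subunits measured here, ELP3 is the catalytic one, ELP2 belongs with it to the core, and ELP4, ELP5 and ELP6 form the accessory ring. After histidine depletion 3 of the 5 were higher and 2 lower, and after tryptophan depletion 1 was higher, 3 were lower and 1 did not pass, so the subunits of the complex did not move as a block in either.

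ELP3 was at 1932 and 1890 in untreated, 1533 and 1587 in histidine-depleted, and 2369 and 2455 in tryptophan-depleted cells, an order opposite to that of URM1. It fell without histidine (log2 -0.28 ± 0.0572, adjusted p = 9.14e-05) and rose without tryptophan (log2 0.33 ± 0.0526, adjusted p = 1.37e-08). ELP2 had the order of URM1, at 3549 and 3754, then 4508 and 4454, then 3167 and 3056 (log2 0.30 ± 0.0517, adjusted p = 1.01e-05, and -0.24 ± 0.0491, adjusted p = 7.31e-06), with the former at 0.17 under quantile normalization.

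In the accessory ring, ELP4 was at 1031 and 1069 in untreated, 1372 and 1505 in histidine-depleted, and 684 and 675 in tryptophan-depleted cells. It rose 1.38-fold without histidine (log2 0.46 ± 0.0648, adjusted p = 6.6e-07) and fell 1.55-fold without tryptophan (log2 -0.63 ± 0.0676, adjusted p = 7.71e-16). ELP6, on the minus strand at chr3:47495640-47513712, was lower under both depletions, at 1114 and 1194, then 962 and 927, then 454 and 467. Its decrease after tryptophan depletion, 2.52-fold (log2 -1.33 ± 0.0715, adjusted p = 2.93e-38), was the largest of any member there, while that after histidine depletion was 1.21-fold (log2 -0.28 ± 0.0668, adjusted p = 0.000594), or -0.15 on the log2 scale with quantile normalization.

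ELP5 changed least in the complex, at 1525 and 1644, then 1737 and 1770, then 1680 and 1615. Its increase after histidine depletion was small (log2 0.16 ± 0.0596, adjusted p = 0.0208). Without untreated replicate 1 it shrank to 0.099 and no longer passed, and without untreated replicate 2 it was 0.21. The call was also lost without histidine-depleted replicate 1 (log2 0.17) or replicate 2 (log2 0.15). Nor did ELP5 pass with DESeq2 (log2 0.15, adjusted p = 0.077), limma without trend (0.16, adjusted p = 0.115) or no filter (0.16, adjusted p = 0.06). After tryptophan depletion it did not pass (log2 0.05 ± 0.0562, adjusted p = 0.436). Opposite-strand genes share 18.2% of the exonic bases of ELP5 (CLDN7 and CTDNEP1) and 19.6% of those of ELP4 (PAX6 and an unnamed gene).

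ALKBH8 methylates and hydroxylates the side chain that Elongator begins, and TRMT112 is the small subunit that holds ALKBH8 and several other methyltransferases in an active state. ALKBH8 was at 814 and 885 in untreated, 2078 and 2084 in histidine-depleted, and 802 and 848 in tryptophan-depleted cells. The histidine-depleted libraries stood apart and the other conditions overlapped. ALKBH8 rose 2.46-fold without histidine (log2 1.30 ± 0.063, adjusted p = 2.27e-15), and its log2 fold change without tryptophan was -0.05, with a 95% interval of -0.18 to 0.09 (adjusted p = 0.529).

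TRMT112 was at 7350 and 7764, then 8753 and 9385, then 5505 and 5330, and per kilobase of exon it had the highest level of all members in each condition. Its increase without histidine (log2 0.27 ± 0.052, adjusted p = 4.88e-05) was lost under quantile normalization (log2 0.033, adjusted p = 0.406), whereas the decrease without tryptophan (log2 -0.49 ± 0.0468, adjusted p = 2.2e-18) held under every alternative tried. TRMT112 has 7 named pseudogenes and shares 25.8% of its exonic bases with ESRRA on the opposite strand, which makes its count less certain.

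**Figure D2:**
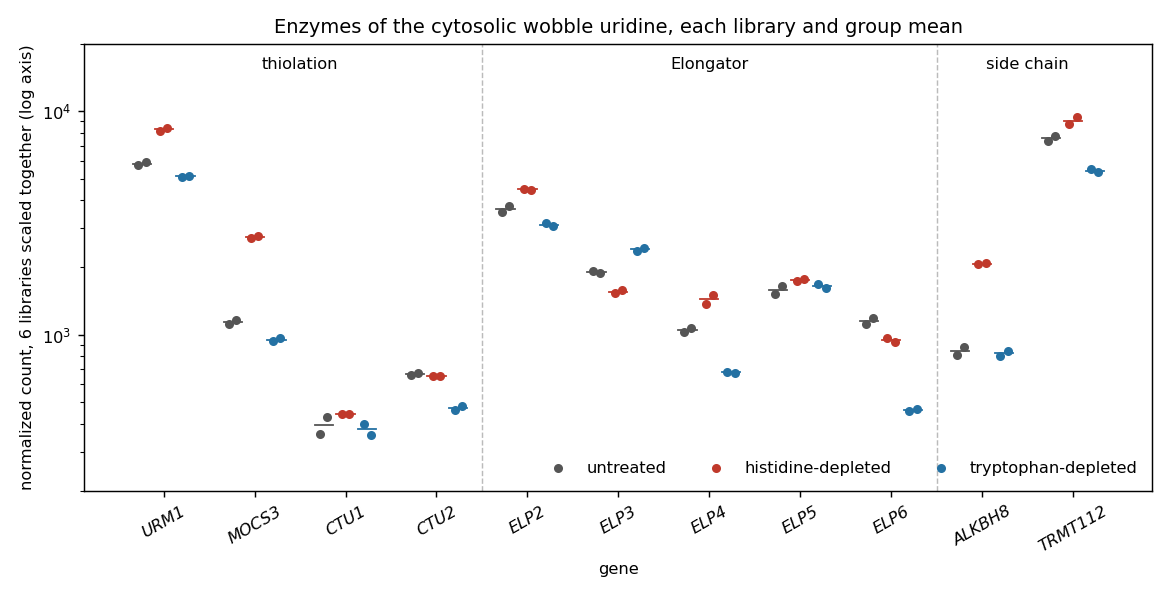
Normalized counts on a log axis of the 11 enzymes of the cytosolic wobble uridine, with a point per library and a bar at the mean of the 2 libraries of a condition. MOCS3 and ALKBH8 show the widest gap between histidine-depleted and the other cells, and ELP6 falls to 454 and 467 in tryptophan-depleted cells.

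In mitochondria, MTO1 and GTPBP3 work together to build the side chain of the wobble uridine, and TRMU thiolates it. GTPBP3, a GTPase gene on the plus strand at chr19:17334920-17342731, was at 781 and 757 in untreated, 185 and 229 in histidine-depleted, and 480 and 505 in tryptophan-depleted cells. It had the largest decrease of all members after histidine depletion, 3.70-fold (log2 -1.89 ± 0.1, adjusted p = 1.28e-14), and fell 1.57-fold after tryptophan depletion (log2 -0.65 ± 0.0759, adjusted p = 7.56e-14). MTO1, by contrast, was higher under both depletions, with condition means of 1240, 1701 and 1541 (log2 0.46 and 0.31). The ratio of MTO1 to GTPBP3 per kilobase was 0.548 in untreated, 2.79 in histidine-depleted and 1.06 in tryptophan-depleted cells. The exon lengths used, 13.3 kb for MTO1 and 4.53 kb for GTPBP3, join all annotated isoforms. The ratio therefore compares conditions and does not show which mRNA was more abundant. By normalized count MTO1 was above GTPBP3 in every condition, also in untreated cells (means of 1240 and 769). TRMU did not pass after histidine depletion (log2 0.06, adjusted p = 0.324) and fell after tryptophan depletion (log2 -0.43, adjusted p = 1.01e-11).

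QTRT1 and QTRT2 form the enzyme that exchanges the wobble guanine for queuine in the tRNAs for histidine, asparagine, aspartate and tyrosine. QTRT2, the accessory subunit, was at 3782 and 3845 in untreated, 9124 and 9286 in histidine-depleted, and 4240 and 4353 in tryptophan-depleted cells. It was higher under both depletions, 2.43-fold without histidine (log2 1.28 ± 0.0491, adjusted p = 2.44e-17) and 1.12-fold without tryptophan (log2 0.16 ± 0.0479, adjusted p = 0.0014), the latter no longer passing without tryptophan-depleted replicate 2 (adjusted p = 0.117) or with limma without trend (0.0624). The catalytic subunit QTRT1 was at 1033 and 1009, then 1349 and 1423, then 690 and 672. It rose 1.37-fold without histidine (log2 0.45 ± 0.0631, adjusted p = 6.47e-07) and fell 1.51-fold without tryptophan (log2 -0.59 ± 0.0679, adjusted p = 3.67e-14), so that the subunits moved together in the former and apart in the latter.

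Among the enzymes that act on the tRNAs of the depleted amino acids, THG1L adds the extra guanosine at the start of the histidine tRNA. THG1L was at 2428 and 2466, then 2177 and 2162, then 1644 and 1678. Its decrease without histidine was slight (log2 -0.16 ± 0.0539, adjusted p = 0.00809). The call was lost, at about the same size, without histidine-depleted replicate 1 (log2 -0.17) or replicate 2 (log2 -0.16). It was also lost with limma without trend (log2 -0.16, adjusted p = 0.0593). The decrease without tryptophan was 1.48-fold (log2 -0.57 ± 0.0531, adjusted p = 5.75e-19). FTSJ1 methylates riboses in the anticodon loop of the tryptophan and phenylalanine tRNAs. At 3941 and 4133 in untreated, 4877 and 4899 in histidine-depleted, and 5203 and 5093 in tryptophan-depleted cells, it was higher under both depletions (log2 0.29 ± 0.0508, adjusted p = 1.93e-05, and 0.34 ± 0.0475, adjusted p = 9.73e-11), the former shrinking to 0.14 with quantile normalization.

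The wobble cytidine of the mitochondrial methionine tRNA is methylated by NSUN3 and then oxidised by ALKBH1. ALKBH1 was at 572 and 637 in untreated, 1643 and 1598 in histidine-depleted, and 717 and 737 in tryptophan-depleted cells, with no overlap between conditions. It rose without histidine (log2 1.43 ± 0.0698, adjusted p = 2.53e-15) and 1.20-fold without tryptophan (log2 0.26 ± 0.0743, adjusted p = 0.00105). NSUN3 had log2 fold changes of 0.38 (adjusted p = 6.89e-06) and -0.61 (adjusted p = 1.2e-15).

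Wobble adenosines are deaminated to inosine by ADAT2 with its partner ADAT3. ADAT2, the catalytic subunit, was at 649 and 583 in untreated, 235 and 260 in histidine-depleted, and 584 and 566 in tryptophan-depleted cells. It fell 2.47-fold without histidine (log2 -1.30 ± 0.0953, adjusted p = 6.93e-12) and did not pass without tryptophan (log2 -0.11, 95% interval -0.26 to 0.05, adjusted p = 0.218). No statement on the pair can be made from ADAT3, whose normalized counts lay between 6.41 and 19.9 and whose exons share 34.8% of their bases with SCAMP4 on the same strand.

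The base that follows the anticodon is modified by 10 of the members. Of these, 4 were higher and 5 lower after histidine depletion, where all genes tested gave 39.1% and 38.2%, and 2 were higher and 7 lower after tryptophan depletion, against 36.1% and 34.8%. YRDC makes the activated intermediate of threonylcarbamoyl adenosine, and OSGEP, the catalytic subunit of the KEOPS complex, transfers it to the tRNA. YRDC, on the minus strand at chr1:37802945-37808208, was at 1266 and 1314 in untreated, 4135 and 3980 in histidine-depleted, and 1958 and 2182 in tryptophan-depleted cells. Its 3.16-fold increase without histidine (log2 1.66 ± 0.0552, adjusted p = 1.56e-18) was the largest of any member, and without tryptophan it rose 1.59-fold (log2 0.67 ± 0.0566, adjusted p = 4.61e-22).

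OSGEP, which acts after YRDC, was at 1320 and 1279, then 623 and 662, then 770 and 812. It fell under both depletions, 2.01-fold without histidine (log2 -1.01 ± 0.0682, adjusted p = 1.59e-12) and 1.65-fold without tryptophan (log2 -0.72 ± 0.0639, adjusted p = 1.17e-20). The enzymes of these successive steps thus moved in opposite directions in both comparisons, with mean levels per kilobase of 698 for YRDC and 258 for OSGEP in untreated, 2196 and 128 in histidine-depleted, and 1120 and 157 in tryptophan-depleted cells. The exon lengths behind these levels, 1.85 kb for YRDC and 5.03 kb for OSGEP, join all isoforms, so the levels compare conditions rather than genes. YRDC has 3 named pseudogenes and shares 28.8% of its exonic bases with C1orf122 on the opposite strand.

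The members that help make the wybutosine of the phenylalanine tRNA are TRMT5, TYW1, TYW3 and LCMT2, named here in the order of their steps. TYW3 was at 1783 and 1810 in untreated, 773 and 811 in histidine-depleted, and 905 and 914 in tryptophan-depleted cells. It fell 2.25-fold (log2 -1.17 ± 0.0628, adjusted p = 1.61e-14) and 1.98-fold (log2 -0.99 ± 0.0593, adjusted p = 9.18e-34). LCMT2, at 1344 and 1339, then 797 and 732, then 781 and 845, fell 1.75-fold (log2 -0.80 ± 0.0676, adjusted p = 9.76e-11) and 1.66-fold (log2 -0.73 ± 0.0634, adjusted p = 3.96e-21). The earlier steps moved less, with log2 fold changes for TRMT5 of -0.18 (adjusted p = 0.0305) and 0.08 (adjusted p = 0.327), and for TYW1 of -0.06 (adjusted p = 0.342) and -0.37 (adjusted p = 7.05e-10). TYW1 has a near-identical paralog, TYW1B, and reads may have been split between them.

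TRIT1 adds an isopentenyl group to adenosine, and CDK5RAP1 and CDKAL1 add methylthio groups to modified adenosines in mitochondria and cytosol respectively. CDK5RAP1 was at 3119 and 2963 in untreated, 4141 and 4139 in histidine-depleted, and 4181 and 4256 in tryptophan-depleted cells. It rose by similar amounts under both depletions (log2 0.45 ± 0.0516, adjusted p = 2.11e-08, and 0.46 ± 0.0487, adjusted p = 3.06e-16). TRIT1 rose without histidine (log2 0.31, adjusted p = 2.23e-05) and fell without tryptophan (log2 -0.72, adjusted p = 1.55e-23), and CDKAL1 did the same on a smaller scale (log2 0.30, adjusted p = 0.000121, and -0.20, adjusted p = 0.00234). ADAT1, which deaminates the adenosine beside the anticodon of the alanine tRNA, fell under both (log2 -0.39 and -0.41).

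Cytosine of tRNA is also methylated by NSUN2, NSUN6 and TRDMT1. TRDMT1 was at 561 and 627 in untreated, 191 and 230 in histidine-depleted, and 325 and 348 in tryptophan-depleted cells, without overlap. It fell 2.80-fold (log2 -1.49 ± 0.105, adjusted p = 3.16e-12) and 1.77-fold (log2 -0.82 ± 0.0867, adjusted p = 4.51e-16). NSUN2, the broadest of these enzymes, rose without histidine from a mean of 7695 to 9648 (log2 0.33, adjusted p = 1.56e-06) and was at 7786 without tryptophan (log2 0.01, 95% interval -0.08 to 0.10, adjusted p = 0.871). NSUN6 had log2 fold changes of 0.21 (adjusted p = 0.0149) and -0.11 (adjusted p = 0.199).

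The other 8 methyltransferase genes modify guanosine, adenosine or uridine in the body of the tRNA, and 6 of them were higher and 2 lower after histidine depletion, with a median log2 fold change of 0.90, where 39.1% of all genes tested were higher and 38.2% lower. After tryptophan depletion 2 were higher, 3 lower and 3 did not pass, with a median of -0.071, where 36.1% of all genes tested were higher and 34.8% lower. METTL1 and WDR4 form the heterodimer that methylates the guanosine of the variable loop. WDR4 was at 809 and 847 in untreated, 1927 and 1870 in histidine-depleted, and 531 and 501 in tryptophan-depleted cells. It rose 2.31-fold (log2 1.21 ± 0.0625, adjusted p = 8.54e-15) and fell 1.61-fold (log2 -0.69 ± 0.0743, adjusted p = 1.44e-15). WDR4 has 2 named pseudogenes. METTL1, the catalytic subunit, rose with it without histidine (log2 0.94, adjusted p = 1.78e-12) but did not pass without tryptophan (log2 -0.05, 95% interval -0.19 to 0.08, adjusted p = 0.511).

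TRMT6 and TRMT61A methylate an adenosine of the T loop as a complex in which TRMT61A is catalytic. TRMT61A was at 1462 and 1698, then 2855 and 2808, then 1265 and 1296. It rose 1.81-fold without histidine (log2 0.85 ± 0.0635, adjusted p = 9.38e-12) and fell 1.24-fold without tryptophan (log2 -0.31 ± 0.0591, adjusted p = 1.68e-06). TRMT6 rose without histidine (log2 0.42, adjusted p = 1.16e-07) and did not pass without tryptophan (log2 -0.06, adjusted p = 0.307).

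TRMT10A methylates a guanosine near the acceptor stem in the cytosol, and TRMT10C does so in mitochondria, where it also belongs to RNase P. TRMT10A was at 419 and 470 in untreated, 949 and 997 in histidine-depleted, and 655 and 636 in tryptophan-depleted cells. It rose 2.20-fold (log2 1.14 ± 0.0794, adjusted p = 2.66e-12) and 1.45-fold (log2 0.53 ± 0.0806, adjusted p = 2.25e-09). The mitochondrial paralog moved the other way, with log2 fold changes for TRMT10C of -0.66 (adjusted p = 2.55e-10) and -0.45 (adjusted p = 2.61e-13). TRMT1, which dimethylates guanosine, rose without histidine from a mean of 1550 to 3295 (log2 1.10, adjusted p = 3.21e-15) and slightly without tryptophan, to 1742 (log2 0.16, adjusted p = 0.00718). TRMT2A, a uridine methyltransferase, fell without histidine (log2 -0.52, adjusted p = 9.59e-09) and did not pass without tryptophan (log2 -0.08, adjusted p = 0.126), and genes on the opposite strand share 10.0% of its exonic bases.

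Pseudouridine is made from uridine by the synthases PUS1, PUS3, PUS7, TRUB1 and TRUB2. Of these 5, 1 was higher, 3 were lower and 1 did not pass after histidine depletion (38.2% of all genes tested were lower), and 4 were lower after tryptophan depletion with 1 not passing (34.8% of all genes). TRUB2, a mitochondrial pseudouridine synthase, was at 3066 and 3087 in untreated, 2240 and 2312 in histidine-depleted, and 1719 and 1673 in tryptophan-depleted cells. It fell 1.34-fold (log2 -0.43 ± 0.0529, adjusted p = 9.29e-08) and 1.82-fold (log2 -0.87 ± 0.0518, adjusted p = 6.54e-34). PUS7 and TRUB1 fell under both depletions (log2 -0.55 and -0.43 for PUS7, -0.36 and -0.33 for TRUB1). PUS3 was the one synthase that rose, and did so without histidine (log2 0.71, adjusted p = 2.65e-10), while PUS1 fell without tryptophan (log2 -0.53, adjusted p = 1e-16).

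Of the 3 dihydrouridine synthases, DUS1L and DUS2 fell without histidine (log2 -0.64 and -0.39) and DUS3L rose (log2 0.33). All 3 were called lower without tryptophan, by at most 0.26 on the log2 scale. The smallest of these decreases, that of DUS2 (log2 -0.15, adjusted p = 0.0384), lay near the threshold and was not rechecked by itself under the alternatives. DTWD1 attaches an aminocarboxypropyl group to a uridine of the D loop. At 1018 and 1057 in untreated, 1315 and 1357 in histidine-depleted, and 1984 and 1918 in tryptophan-depleted cells, it had the largest increase of any member after tryptophan depletion. It rose 1.87-fold there (log2 0.90 ± 0.0577, adjusted p = 2.44e-31) and 1.30-fold without histidine (log2 0.37 ± 0.0631, adjusted p = 9.66e-06). DTWD1 has 2 named pseudogenes, and QTRT1, TRMT1 and METTL1 have 1 each.

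Enzymes that work as pairs did not always change as pairs. After histidine depletion both members rose in QTRT1 with QTRT2, METTL1 with WDR4, TRMT6 with TRMT61A and ALKBH8 with TRMT112, the last subject to the normalization noted above. MTO1 with GTPBP3 and YRDC with OSGEP moved in opposite directions in both comparisons. Of these pairs, and of CTU1 with CTU2 and ADAT2 with ADAT3, none passed in the same direction for both partners after tryptophan depletion. Outside them, URM1 with MOCS3, ELP4 with ELP6, and TYW3 with LCMT2 were lower together there.

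Set directly against each other, the depleted samples differed for most members. Their media had different bases, as given above, so a difference between media cannot be told apart here from that between the amino acids. In the joint fit 32 of 52 members were higher without histidine than without tryptophan (61.5%) and 13 lower (25.0%), against 39.1% and 37.8% of all 18276 genes tested, and 7 did not pass. The median log2 difference was 0.44 for the members and 0.018 for all genes. By at least 1 on the log2 scale, 10 members were higher and 2 lower, while 16.4% of all genes tested were called higher and 15.6% lower at that size.

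All 4 thiolation members were higher without histidine than without tryptophan. The difference was 0.70 ± 0.0391 for URM1 (adjusted p = 2.95e-11), 1.52 ± 0.0514 for MOCS3 (adjusted p = 3.18e-14), 0.48 ± 0.0688 for CTU2 (adjusted p = 6.99e-06) and 0.23 ± 0.0961 for CTU1 (adjusted p = 0.0387). The last shrank to 0.15 and did not pass without tryptophan-depleted replicate 2. At 0.23 it did not pass either without histidine-depleted replicate 1 or replicate 2. The same size failed with DESeq2 (adjusted p = 0.117), limma without trend (0.124) or no filter (0.075). In Elongator, ELP2 (0.53), ELP4 (1.08) and ELP6 (1.04) were higher without histidine, ELP3 was lower (-0.63 ± 0.0475, adjusted p = 1.73e-09) and ELP5 did not pass (0.09, adjusted p = 0.126). ALKBH8 (1.33 ± 0.0589, adjusted p = 1.11e-12), TRMT112 (0.74), QTRT1 (1.02), QTRT2 (1.10) and THG1L (0.38) were all higher without histidine.

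WDR4 had the largest difference of all, 1.88 ± 0.0605 on the log2 scale or 3.67-fold (adjusted p = 1.74e-14), having risen under the former depletion and fallen under the latter. ALKBH1 (1.16 ± 0.0646, adjusted p = 2.81e-11) and TRMT61A (1.14 ± 0.0603, adjusted p = 1.23e-11) followed MOCS3 and ALKBH8. On the other side stood GTPBP3 (-1.25 ± 0.0956, adjusted p = 1.94e-09), ADAT2 (-1.21 ± 0.0857, adjusted p = 6.8e-10), TRDMT1 (-0.68 ± 0.103, adjusted p = 1.17e-05) and DTWD1 (-0.55 ± 0.052, adjusted p = 3.9e-08). For FTSJ1 the difference was -0.07 with a 95% interval of -0.16 to 0.01 (adjusted p = 0.106), which reached -0.17 with quantile normalization (adjusted p = 0.000247) and also passed in other alternatives, for CDK5RAP1 -0.03 with an interval of -0.12 to 0.06, and for ADAT1 0.00 with an interval of -0.12 to 0.11.

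**Figure D3:**
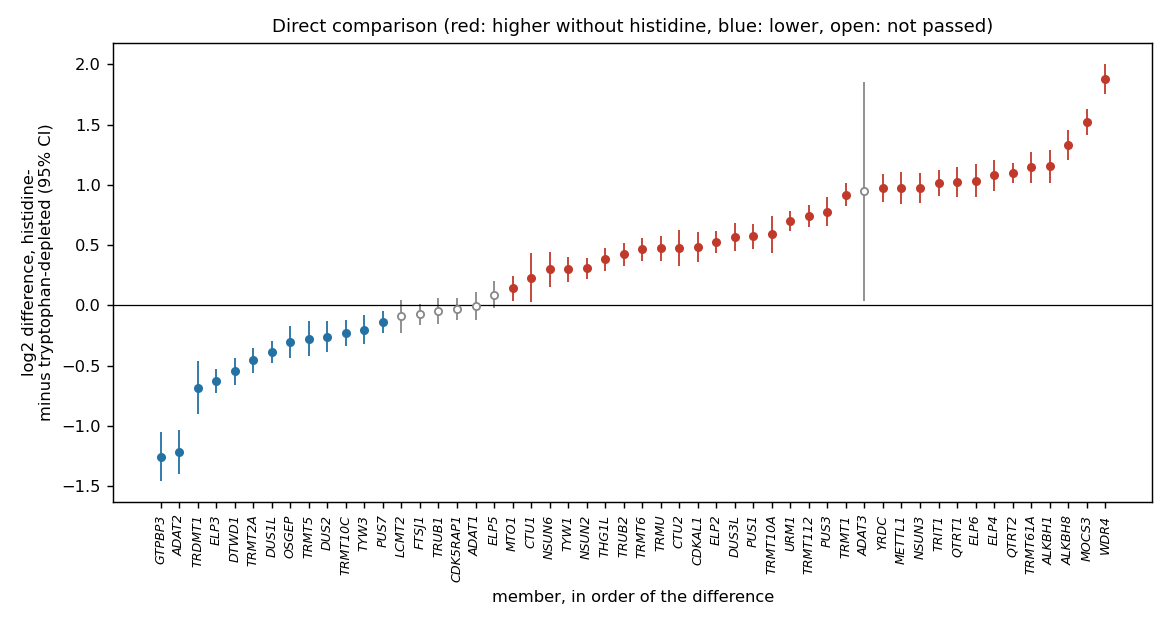
Log2 difference between histidine- and tryptophan-depleted cells for each member with its 95% confidence interval, in order of the difference, in red where higher and blue where lower without histidine, and open where the test was not passed. The order runs from GTPBP3 at -1.25 to WDR4 at 1.88, and ADAT3 has by far the widest interval.

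MOCS3 and ALKBH8, which act at different steps on the wobble uridine, and QTRT2, which acts on the wobble guanine, had the largest rises of the cytosolic wobble-base enzymes after histidine depletion, of 2.41-, 2.46- and 2.43-fold. ALKBH1 rose more but was described above for a mitochondrial tRNA and is not shown. The promoters of the former, picked after their values were seen, are given from RefSeq on GRCh38.p14, from 250 bases before to 50 bases after the start site and in the direction of transcription. MOCS3 lies on the plus strand at chr20:50958568-50958867, ALKBH8 on the minus strand at chr11:107565686-107565985 and QTRT2 on the plus strand at chr3:114056487-114056786. Capitals mark matches on either strand to TGATGNAA, the core of the amino acid response element, to CCGGAAGT, an ETS-type motif, or to CCAAT.
MOCS3: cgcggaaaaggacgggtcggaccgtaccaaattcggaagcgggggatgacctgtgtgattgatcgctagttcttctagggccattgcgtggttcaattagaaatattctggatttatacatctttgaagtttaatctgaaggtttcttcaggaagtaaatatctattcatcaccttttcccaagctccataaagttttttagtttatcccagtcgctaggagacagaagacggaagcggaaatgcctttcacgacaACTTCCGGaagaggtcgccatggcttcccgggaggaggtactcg
ALKBH8: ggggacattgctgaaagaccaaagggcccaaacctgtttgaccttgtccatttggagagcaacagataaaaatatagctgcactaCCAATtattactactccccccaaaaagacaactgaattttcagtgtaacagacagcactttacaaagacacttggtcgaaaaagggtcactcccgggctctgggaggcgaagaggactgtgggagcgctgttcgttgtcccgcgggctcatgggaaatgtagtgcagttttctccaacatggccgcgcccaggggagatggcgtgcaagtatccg
QTRT2: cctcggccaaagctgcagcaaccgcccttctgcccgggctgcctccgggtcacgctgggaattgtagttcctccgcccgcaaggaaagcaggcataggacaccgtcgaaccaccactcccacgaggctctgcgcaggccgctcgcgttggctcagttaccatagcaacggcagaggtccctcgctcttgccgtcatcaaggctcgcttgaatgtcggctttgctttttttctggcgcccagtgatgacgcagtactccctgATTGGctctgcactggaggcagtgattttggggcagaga
MOCS3 held the ETS-type letters at base 7 counted from the start site as base 1, ALKBH8 held CCAAT at base -165, and QTRT2 held CCAAT on the opposite strand at base 12. No letters matching TGATGNAA were found in these windows. In all 15843 protein-coding genes with such a promoter, TGATGNAA occurred in 3.60%, CCGGAAGT in 6.97% and CCAAT in 42.1%.

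A promoter was given for 43 of the 52 members. There was none for URM1, ELP3, MTO1, TRIT1, TYW3, NSUN2, TRMT2A, METTL1 and PUS1, which were thus not searched for any motif. The letters TGATGNAA were in the promoters of CDKAL1 and TRUB1 (4.65% of 43). The windows of 30 bases around them, at chr6:20534402-20534431 and chr10:114938191-114938220 on the plus strand, are shown because this is the motif through which amino acid shortage is known to act on many genes.
CDKAL1: gctttcagcaaTGATGTAAtttgatctctt
TRUB1: gcgcactcttgTTGCATCAtcagcgtgcac
CDKAL1 rose after histidine depletion (log2 0.30) and fell after tryptophan depletion (log2 -0.20), and TRUB1 fell after both (log2 -0.36 and -0.33). A match of letters is no evidence of binding.

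A further 31 genes of tRNA modification that are not among the 52 were also measured. After histidine depletion 15 were higher and 13 lower, with a median log2 fold change of 0.085, where 39.1% of all genes tested were higher and 38.2% lower. After tryptophan depletion 9 were higher and 13 lower (median -0.10), against 36.1% and 34.8% of all genes, and in the direct comparison 16 were higher and 10 lower without histidine (median 0.14), against 39.1% and 37.8%. Whether these genes differ from the 52 as a list was not tested. Among the KEOPS partners of OSGEP, TPRKB rose without histidine (log2 0.84) and fell without tryptophan (log2 -0.58), LAGE3 rose under both (log2 0.53 and 0.18), TP53RK rose without histidine (log2 0.59) and did not pass without tryptophan (log2 0.01, adjusted p = 0.926), and GON7 fell under both (log2 -0.27 and -0.42). OSGEPL1, which transfers the same group in mitochondria, fell without histidine from 232 and 221 to 63.2 and 62.1 (log2 -1.83, adjusted p = 5.95e-11). KTI12, an accessory factor of Elongator, rose without histidine from 180 and 218 to 408 and 382 (log2 1.00, adjusted p = 1.72e-08) and did not pass without tryptophan (log2 -0.18, adjusted p = 0.195). NFS1, the desulfurase that supplies sulfur to the thiolation pathways, fell under both depletions (log2 -1.10 and -0.25). DTWD2, the paralog of DTWD1, was higher without tryptophan (log2 0.89), as DTWD1 was, but lower without histidine (log2 -0.86), where DTWD1 was higher.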

How the data were processed

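RNA-seq of 6 HT29 libraries, 2 per condition, was analysed. The authors aligned the reads to GRCh38 with STAR 2.7.10a and counted them per gene with HTSeq 2.0.5. They deposited normalized counts, a kind of signal, obtained by dividing the counts by size factors of DESeq2, in a separate table for each depletion. Whether molecular identifiers and strand were used in counting is not given in the sources used here. All values of a library were whole multiples of a common step (100% of them, within 0.001), and division by it returned the reads, which for the untreated libraries were the same in both tables.

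Each depletion was tested against untreated cells within its own table by limma 3.58.1 under R 4.3.3, with an intensity trend, without robust fitting and two-sided. The test used log2(normalized count + 1), kept genes whose mean was 10 or more, adjusted p by Benjamini-Hochberg over every gene tested, and took 0.05 as the threshold. Such fold changes understate the change of genes with low counts. For levels across tables and for the direct comparison, the reads of the 6 libraries were brought to a common scale by median-of-ratios size factors and fitted in 1 limma model, so that levels and fold changes rest on slightly different scalings. Levels per kilobase used the joined length of the exons of all isoforms of a gene in GENCODE v44. This can exceed the length of its mRNA and makes levels of different genes hard to compare.

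The members, their groups, the other gene lists and the motifs were chosen with earlier results of these data known. Values in every library are given for 15 members fixed by name, namely the cytosolic wobble uridine enzymes, QTRT1, QTRT2, THG1L and FTSJ1, and for the 5 largest increases and 5 largest decreases per comparison that passed the test, averaged 100 or more in whichever group was higher, and did not overlap between groups. The alternatives changed the pseudocount (0.5 or 8), the filter (none, or a mean of 50), the trend, the scaling (quantile normalization), the test (edgeR 4.0.16 or DESeq2 1.42.0 on reads) and the libraries fitted, added a replicate block, or left out each library. The code was tested on simulated data. Python 3.11.15 with pandas 2.3.3 was used for tables, and matplotlib 3.10.9 for plots.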

Additional observations from a re-analysis of the deposited data

How the results depend on the processing

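The counts of members higher and lower stayed within 1.5 times their values under every alternative run. After histidine depletion 26 to 29 members were higher and 16 to 18 lower, after tryptophan depletion 7 to 11 were higher and 27 to 31 lower, and in the direct comparison 30 to 33 were higher and 12 to 15 lower. On the recovered reads, edgeR called 28 members higher and 18 lower without histidine, and 10 higher and 31 lower without tryptophan. DESeq2 called 26 and 17, and 9 and 29. With a replicate block the counts were 28 and 18, 10 and 30, and 33 and 13, and same-numbered samples hardly deviated together (correlations of 0.050, 0.0074 and -0.034 over genes), so the numbers were not taken to pair the samples.

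Of 982 values recomputed for the 67 results of members described in full, 950 kept their direction and their side of the threshold, 18 no longer passed, 7 passed only in the alternative, 6 that passed in neither changed sign, and 1 was reversed. The reversed value was CTU2 after histidine depletion, at 0.18 (adjusted p = 0.0208) with quantile normalization, and the cause was not tested. The others concern CTU1, ELP5, TRMT112, THG1L, ALKBH8, QTRT2 and FTSJ1. Beyond these, quantile normalization moved some values by over 1.5 times without changing their call, as given beside URM1, MOCS3, ELP2, ELP6 and FTSJ1. The untreated samples of CTU1 differed by 18.0%, the most of the 51 members other than ADAT3, and for ADAT3 the depth of 7 to 22 reads set the limit.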

Other observations

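Other motifs were searched on both strands of the same promoters, and no string searched lies within another, although matches can share end bases. CCGGAAGT occurred in 11 of the 43 members with a promoter (25.6%), against 6.97% of all 15843 genes, and ACTACAA, a part of the ZNF143 motif, in 6 members, against 603 of all genes (3.81%). TGACGTCA, the cyclic AMP response element, was in 4 members (9.30%), against 475 of all genes, CCAAT in 18 (41.9%, against 42.1%), and GGGGCGGG, bound by SP1, in 14 (32.6%, against 36.4%). CACGTG, the E-box, was in 5 (11.6%, against 10.9%), the NRF1 motif in 5 (11.6%, against 9.67%), AAGATGGC of YY1 in 3 (6.98%, against 4.66%) and TTTCCCGC of E2F in 1 (2.33%, against 2.65%). The median GC content was 59.3% for the members and 62.3% for all genes, and no test of these shares was made.

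The members with CCGGAAGT were MOCS3, CTU1, ELP5, TRMT112, TRMU, NSUN3, LCMT2, NSUN6, TRMT61A, TRMT10C and THG1L. Their log2 fold changes after histidine depletion ran from -0.80 for LCMT2 to 1.27 for MOCS3, in both directions. After tryptophan depletion they ran from -0.73 for LCMT2 to 0.05 for ELP5.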
